A study of Mus musculus with 9 samples.

Results

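The genes of the vascular endothelial growth factor (VEGF) ligands and their receptors were followed in whole hearts of mice with chronic heart failure. The set holds 9 genes taken by name and not by their values: the ligands Vegfa, Vegfb, Vegfc and Pgf, the receptor tyrosine kinases Flt1, Kdr and Flt4, and the co-receptors Nrp1 and Nrp2. Of these, 8 were measured among 30142 named genes, each by a single probe set. The probe set of Nrp1 also carries the symbol of the microRNA gene Mir1903, so it names no single gene and was not used here.

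The hearts came from immunodeficient nude mice whose left anterior descending coronary artery had been tied for good. Mice entered at 3 weeks if the ejection fraction was under 50%, and hearts were taken 6 weeks after treatment, the sham heart carrying the same chronic heart failure label as the rest. The vesicle group (3 arrays) received what 500000 cardiovascular progenitor cells had released in 48 hours, the cell group (3 arrays) received 500000 such cells, the control group (2 arrays) received alpha-MEM culture medium, and the sham heart (1 array) had a needle inserted 3 times with nothing injected. Injection was through the closed chest under ultrasound guidance at 3 sites beside the infarct, as described for cells. By their titles the first array of every group, sham included, belongs to an experiment numbered 9. All other arrays (control array 2 and arrays 2 and 3 of both treatments) belong to an experiment numbered 1. The age of the mice and whether each array is a separate animal are not stated in the labels, so p-values measure only the spread between these arrays, which may be technical. Precision is limited by how few arrays there are.

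VEGF ligands are secreted dimers that act mainly on endothelial cells. VEGF-A binds the receptors encoded by Flt1 and Kdr. Most of its effect on endothelial growth, survival and permeability passes through Kdr, whereas Flt1 binds the ligand tightly, signals weakly and exists also as a soluble trap. VEGF-B and placental growth factor bind Flt1, and VEGF-C binds the lymphatic receptor encoded by Flt4 and, once processed, Kdr. Neuropilins carry no kinase; they present VEGF ligands to these receptors and also bind class 3 semaphorins. In the heart, muscle cells are a main source of Vegfa and Vegfb, and the dense capillary bed carries the receptors.

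Promoters of 4 members are shown first, because Vegfa and Nrp2 had the largest fitted differences from control, Kdr the widest gap between the sham heart and the others, and Flt1 is the second receptor of Vegfa. Each is the 250 bases before the annotated start, from RefSeq on GRCm38.p6, written 5′ to 3′ on the gene's own strand, with the core letters bound by hypoxia-inducible factors (ACGTG or GCGTG, either strand) in capitals. They lie at chr17:46032378-46032627 (Vegfa, minus strand), chr5:75978456-75978705 (Kdr, minus strand), chr5:147726012-147726261 (Flt1, minus strand) and chr1:62703067-62703316 (Nrp2, plus strand).
Vegfa: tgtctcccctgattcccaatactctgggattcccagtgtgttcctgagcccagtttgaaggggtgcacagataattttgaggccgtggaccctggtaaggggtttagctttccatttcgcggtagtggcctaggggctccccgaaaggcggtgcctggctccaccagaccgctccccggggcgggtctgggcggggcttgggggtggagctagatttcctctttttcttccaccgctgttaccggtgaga
Kdr: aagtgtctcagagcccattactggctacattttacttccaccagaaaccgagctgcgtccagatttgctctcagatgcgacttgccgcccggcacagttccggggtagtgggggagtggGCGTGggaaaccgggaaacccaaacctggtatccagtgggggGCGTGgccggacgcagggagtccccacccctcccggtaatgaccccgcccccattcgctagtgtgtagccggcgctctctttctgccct
Flt1: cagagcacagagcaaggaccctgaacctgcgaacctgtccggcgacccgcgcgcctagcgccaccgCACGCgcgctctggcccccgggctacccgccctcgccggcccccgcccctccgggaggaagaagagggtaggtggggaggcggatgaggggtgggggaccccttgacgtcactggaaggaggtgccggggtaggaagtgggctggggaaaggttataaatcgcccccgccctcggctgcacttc
Nrp2: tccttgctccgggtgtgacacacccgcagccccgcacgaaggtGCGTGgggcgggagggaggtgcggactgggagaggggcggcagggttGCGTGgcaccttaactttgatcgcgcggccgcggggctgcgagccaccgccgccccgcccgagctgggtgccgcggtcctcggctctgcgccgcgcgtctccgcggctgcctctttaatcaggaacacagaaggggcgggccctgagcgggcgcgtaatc

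The Kdr promoter held that core at 131 and 89 bases before the start, Nrp2 at 207 and 160, and Flt1 at 184. The Vegfa window held none, while the window of a second annotated Vegfa start, at chr17:46025164-46025413, held 2. That second window lies downstream of the first start, between both starts, so its letters need not be promoter sequence. Over the 9 genes 11 starts are annotated. Of their windows 7, that one included, hold the core, against 38.6% of 32851 promoter windows of this length. The SP1 GC box (GGGCGG, either strand) was in 10 of the 11 windows against 32.7% of all windows, and the short ETS letters GGAAG (either strand) were in 6 against 64.1%. The member windows hold 7 to 32 CpG dinucleotides against a median of 6 over all windows. The hypoxia core and the GC box contain a CpG, and the ETS letters do not. The part of CpG content in these counts was not tested. A match describes letters, not binding, and the expression data do not test these sites.

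Values are log2 expression levels as the authors deposited them. The array medians over named genes lay between 5.56 and 5.63. A gene was taken as above background where it exceeded the 95th percentile of 10553 negative control probe sets, which lay between 7.18 and 7.28 on the 9 arrays. Vegfa, Vegfb, Flt1, Kdr, Flt4 and Nrp2 were above it on all 9 arrays, Flt4 only just. Vegfc and Pgf were under it on all 9, so neither had a level that these arrays could measure, and their values below bound no change. In whole hearts fewer cells of a type and less RNA per cell cannot be told apart. Deposited values are often tied. Pgf had the very same value, 6.02, on 6 arrays, Vegfb had 10.35 and Flt1 8.92 on 3 arrays each, and such ties narrow the spread.

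Vegfa, the main angiogenic ligand, was lowest in the sham heart and highest in the cell-treated hearts of experiment 1. Its log2 level was 9.65 on the sham array, 9.80 and 9.72 on control arrays 1 and 2, 9.81, 9.92 and 9.81 on vesicle arrays 1 to 3, and 9.79, 10.08 and 10.08 on cell arrays 1 to 3. All 3 vesicle arrays lay above both controls, and the cell arrays overlapped the controls because cell array 1 did not stand above control array 1. The group means were 9.76 ± 0.055 (SD, n = 2) for control, 9.85 ± 0.061 (SD, n = 3) for vesicles and 9.98 ± 0.17 (SD, n = 3) for cells. None of these 3 groups differed from another past the test's threshold.

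Vegfb, a ligand linked to coronary vessels and fatty acid uptake, showed no order by treatment. Its level was 10.31 on the sham array, 10.35 on both control arrays, 10.45, 10.27 and 10.35 on the vesicle arrays, and 10.36, 10.21 and 10.52 on the cell arrays. The cell arrays held both the lowest and the highest value of the 9. The lymphatic ligand Vegfc lay between 6.79 and 6.97 over all arrays and Pgf between 5.76 and 6.08, both under the background limit.

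**Figure D1:**
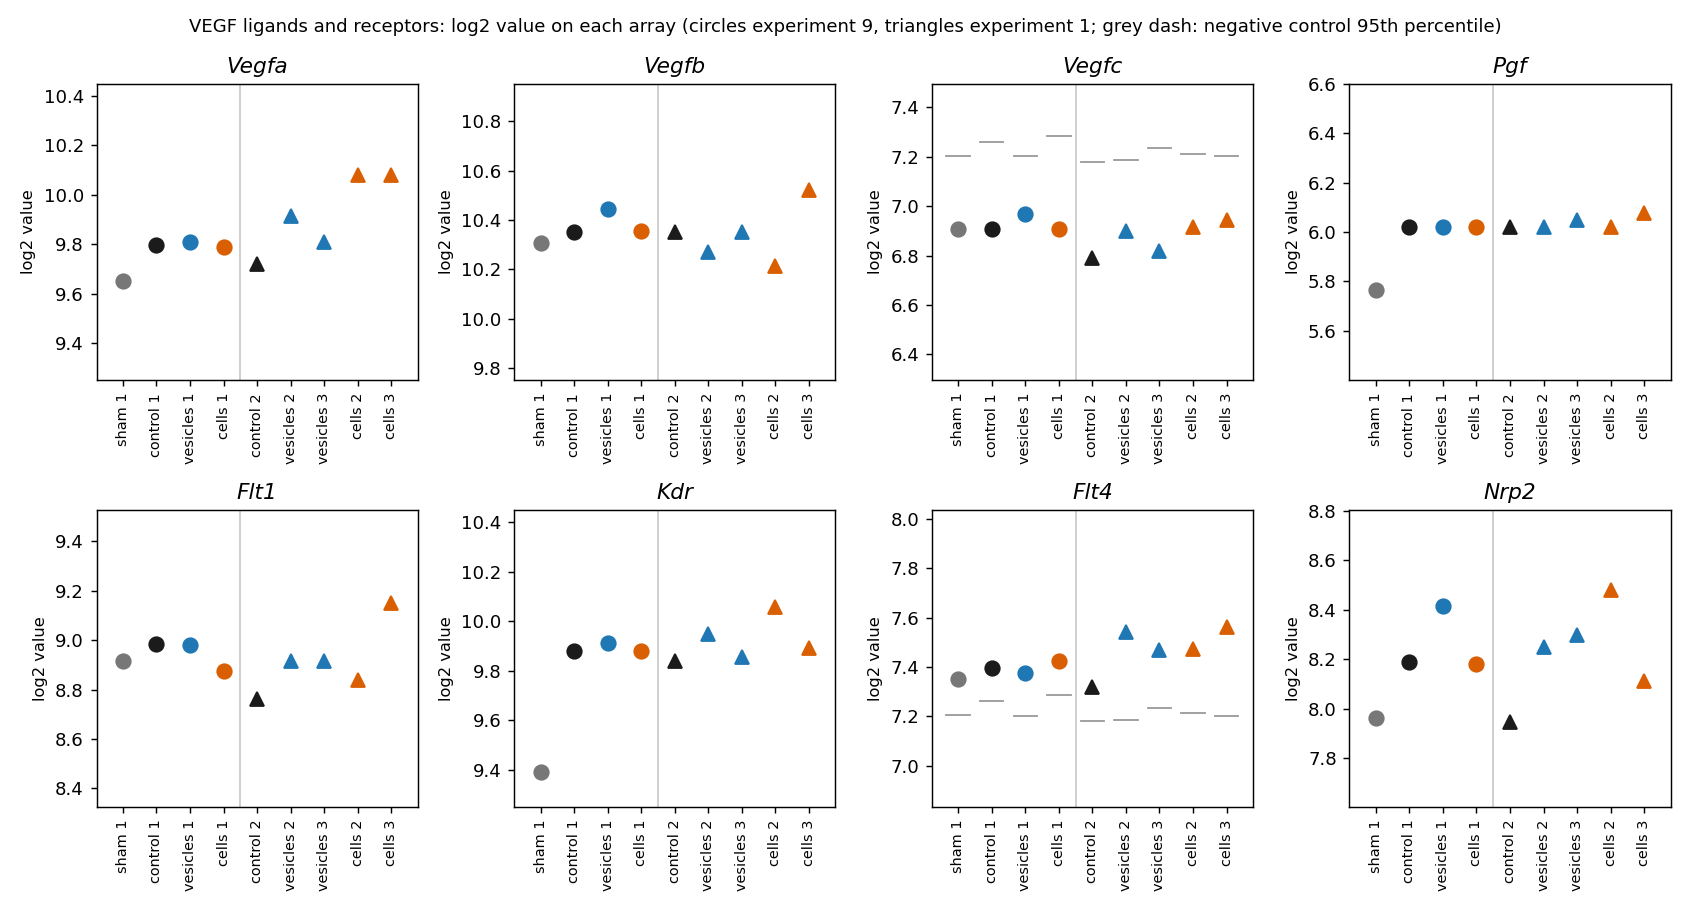
Log2 value of the 8 measured members on each of the 9 arrays, with 1 panel per gene, colours for sham, control, vesicles and cells, circles for experiment 9 and triangles for experiment 1, and a grey dash at each array's 95th percentile of negative controls where it falls in the panel; every panel spans the same log2 width. Kdr on the sham array (9.39) lies apart from the other 8 arrays (9.84 to 10.06), and the Vegfa values of cell arrays 2 and 3 (10.08) lie above the rest.

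Among the receptors, Kdr, the main signalling receptor, set the sham heart apart. Its level was 9.39 on the sham array, 9.88 and 9.84 on the control arrays, 9.91, 9.95 and 9.86 on the vesicle arrays, and 9.88, 10.06 and 9.89 on the cell arrays. The 8 injected hearts spanned only 0.22 on the log2 scale, and the sham value lay 0.45 under the lowest of them. The injected groups overlapped, at 9.86 ± 0.029 (SD, n = 2) for control, 9.91 ± 0.047 (SD, n = 3) for vesicles and 9.94 ± 0.099 (SD, n = 3) for cells.

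Flt1, the receptor that also serves as a trap, did not share that drop. It stood at 8.92 on the sham array, 8.98 and 8.76 on the control arrays, 8.98, 8.92 and 8.92 on the vesicle arrays, and 8.88, 8.84 and 9.15 on the cell arrays. The highest value was that of cell array 3 and the lowest that of control array 2, and every treatment group overlapped the controls. Flt4, the receptor of lymphatic endothelium, stood at 7.35 on the sham array, 7.40 and 7.32 on the control arrays, 7.38, 7.54 and 7.47 on the vesicle arrays, and 7.42, 7.47 and 7.56 on the cell arrays. Its 3 cell arrays all lay above both controls, by a margin of 0.027 at the closest.

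Nrp2, the neuropilin of veins and lymphatics, varied most among the injected hearts, over 0.53 on the log2 scale. It stood at 7.96 on the sham array, 8.19 and 7.95 on the control arrays, 8.42, 8.25 and 8.30 on the vesicle arrays, and 8.18, 8.48 and 8.11 on the cell arrays. All vesicle arrays lay above both controls, and the cell arrays did not. The means were 8.07 ± 0.17 (SD, n = 2) for control, 8.32 ± 0.085 (SD, n = 3) for vesicles and 8.26 ± 0.19 (SD, n = 3) for cells.

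The first comparison asked what vesicles leave in the heart beyond medium alone. All 8 members had a positive fitted difference, with a median of 0.064 on the log2 scale. Of all genes 39.5% were positive, with a median of −0.012, and of the brighter 15071 48.0%. The 8, here and in the counts below, include Vegfc and Pgf, which were under background on all 9 arrays. No member passed limma's test across all genes: 0 of 8 at an adjusted p under 0.05, against 0% of 30142 genes. At an unadjusted p under 0.05 there were also 0 of 8, against 6.44% of all genes. The largest difference was that of Nrp2, at 0.27 ± 0.13 (SE, 95% interval −0.075 to 0.61, limma adjusted p = 0.675), or 1.20-fold. Flt4 followed at 0.095 ± 0.059 (limma adjusted p = 0.693). Flt1 stood at 0.073 ± 0.12, Vegfa at 0.071 ± 0.089, Kdr at 0.043 ± 0.065 and Vegfb at 0.013 ± 0.10, each with an interval on both sides of 0. Vegfa and Nrp2 were the 2 of 8 members whose vesicle arrays all exceeded both controls, which 3.72% of all genes did.

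The vesicle difference was not the same size in the experiments. In experiment 9 Vegfa stood 0.014 from control and in experiment 1 0.14, Kdr stood at 0.033 and 0.063, and Nrp2 at 0.23 and 0.33. Flt1 was at −0.0032 and 0.16 and Flt4 at −0.020 and 0.19. Limma's test of the difference between experiments passed for no member, with adjusted p from 0.465 to 1, and 0 of 8 had an unadjusted p under 0.05 (18.1% of all genes). Without control array 2, the lower of the controls for 6 members, the fitted differences of Vegfa, Flt1, Kdr and Flt4 were −0.065, −0.064, −0.0022 and −0.0079, and Nrp2 stood at 0.14. In that fit the only control left has no spread of its own and takes that of the other arrays.

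Vesicle array 3 also carried lung transcripts. All 9 genes of the lung list were highest there: Sftpc, a surfactant protein, stood at 9.75 against 6.35 on the sham array and 4.28 to 4.52 on the other 7, and Scgb1a1, a club cell protein, at 8.90 against 4.64 to 4.79. Besides these, only Sftpb (8.39) was above that array's background limit of 7.24, and the rest of the list was under it. The list's mean deviation was 1.70 on that array and −0.30 to 0.055 on the others. Without this array the vesicle difference was 0.11 for Vegfa, 0.071 for Kdr, 0.076 for Flt1 and 0.26 for Nrp2.

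Progenitor cell hearts were read against the same control arrays, so this comparison shares its controls with the one before. Again all 8 differences were positive, Vegfc and Pgf under background among them, with a median of 0.088. Of all genes 44.1% were positive, and of the brighter ones 52.0%. No member passed: 0 of 8 at an adjusted p under 0.05 (0% of all genes). At an unadjusted p under 0.05 there were also 0 of 8 (6.73% of all genes). Vegfa stood at 0.21 ± 0.089 (SE, 95% interval −0.019 to 0.43, limma adjusted p = 0.682), or 1.15-fold. Nrp2 stood at 0.20 ± 0.13, Flt4 at 0.12 ± 0.059, Flt1 at 0.091 ± 0.12, Kdr at 0.080 ± 0.065 and Vegfb at 0.021 ± 0.10. Flt4 was the 1 of 8 members whose cell arrays all exceeded both controls, against 3.2% of all genes.

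The Vegfa difference after cells came from experiment 1. It was 0.36 there, on both cell arrays, and −0.0084 in experiment 9. Limma's test of that difference gave an unadjusted p of 0.0324 and an adjusted p of 0.212, in a fit where 18.8% of all genes had an unadjusted p under 0.05. Nrp2 stood at −0.0053 in experiment 9 and 0.35 in experiment 1, Flt1 at −0.11 and 0.24, and Kdr at 0 and 0.14. Cell array 1 lay above control array 1 for 2 of 8 members, under it for 3 and at the same value for 3, whereas cell arrays 2 and 3 lay above control array 2 for 6 and 8. Without control array 2 the Vegfa difference was 0.071 and without cell array 1 it was 0.32. The receptor values after cells also moved with single arrays. Without control array 2 Flt4 stood at 0.015, Nrp2 at 0.079 and Kdr at 0.035, and without control array 1 at 0.20, 0.31 and 0.12. Without cell array 2 Nrp2 stood at 0.080 and Kdr at 0.026, and without cell array 1 at 0.32 and 0.13. Flt1 stood at −0.045 without control array 2 and at −0.013 without cell array 3.

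**Figure D2:**
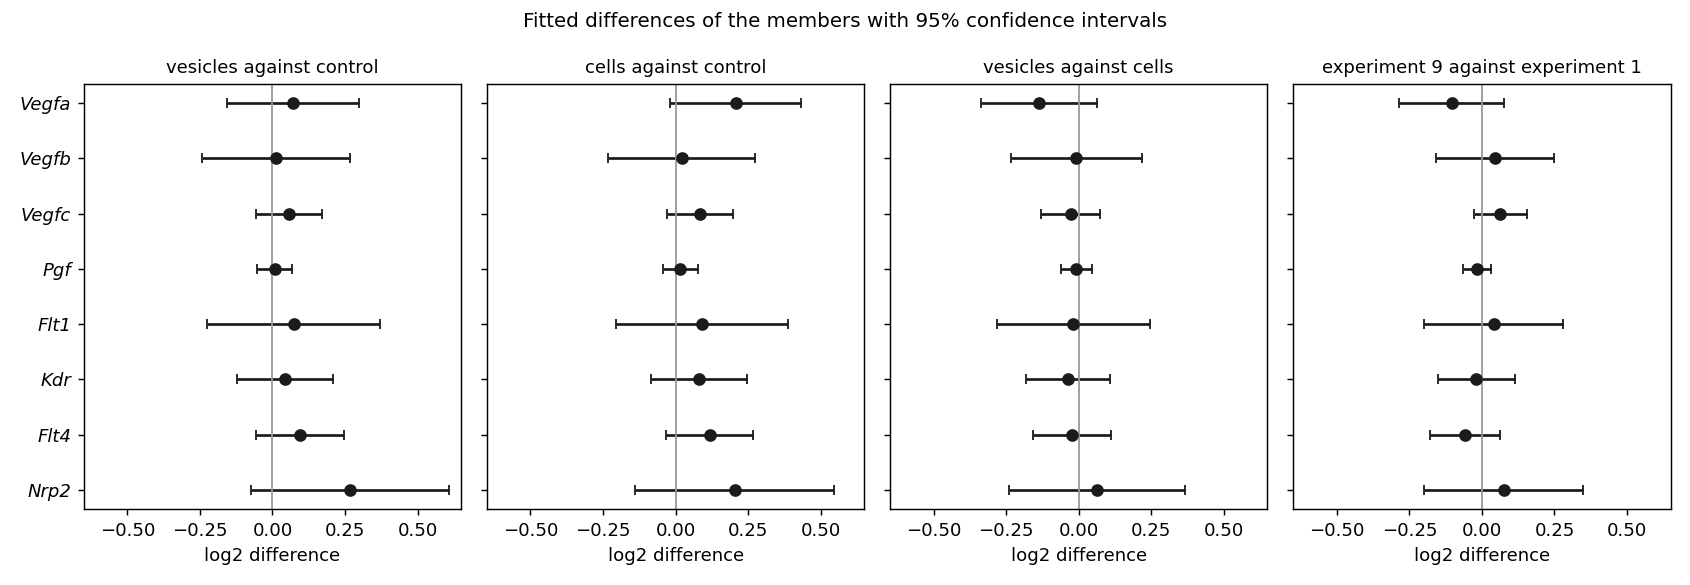
Fitted log2 difference of each member (points) with its 95% confidence interval (bars) from limma over 8 arrays; the panels set each treatment against control, the treatments against each other, and experiment 9 against experiment 1. Every interval includes 0; the largest points are Nrp2 after vesicles (0.27) and Vegfa after cells (0.21).

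Vesicles and cells were then set against each other. Of the 8 members 7 were lower after vesicles, Vegfc and Pgf under background among them. The other, Nrp2, was higher at 0.063 ± 0.12 (SE). Of all 30142 genes 15679 were lower and 14082 (46.7%) higher, and of the brighter ones 49.0% were higher. Vegfa stood at −0.14 ± 0.079 (95% interval −0.34 to 0.064, limma adjusted p = 0.920), with 0.022 in experiment 9 and −0.22 in experiment 1. Kdr stood at −0.037 ± 0.057 (95% interval −0.18 to 0.11) and Flt1 at −0.019 ± 0.10 (95% interval −0.28 to 0.24). No member passed, 0 of 8 also at an unadjusted p under 0.05 (4.34% of all genes), and each of these intervals includes 0. For 0 of 8 members did all vesicle arrays lie above all cell arrays (1.85% of all genes) or under them (2.56%).

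For the experiment itself no member passed limma's adjusted test, which does not bound its size closely. The 95% intervals ran from −0.28 to 0.077 for Vegfa and from −0.20 to 0.35 for Nrp2. Of 8 members 4 were higher and 4 lower in experiment 9, with fitted differences from −0.10 ± 0.071 (SE) for Vegfa to 0.075 ± 0.11 for Nrp2, and limma adjusted p from 0.481 to 0.884. None had an unadjusted p under 0.05, which 12.8% of all genes had in this comparison. The controls differed: control array 1 lay above control array 2 for 6 members and at the same value for 2, most of all for Nrp2 (0.24) and Flt1 (0.22).

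The sham heart could be compared only by value, being a single array. Against control array 1 of the same experiment 7 of 8 members were lower, 1 was equal and none was higher. Their median was −0.11. The 7 include Pgf and the equal one is Vegfc, both under background. Of all genes 40.9% were lower and 38.8% higher. Kdr stood at −0.49, or 0.712 of the control value, Nrp2 at −0.22 and Vegfa at −0.15, while Flt1 (−0.066), Vegfb (−0.046) and Flt4 (−0.045) lay close to the control. A drop of at least 0.4, a limit set after the Kdr value was seen, was met by 0.461% of all genes. Vegfa, Kdr and Pgf were lowest of the 9 arrays in the sham heart (3 of 8 members; 9.92% of all genes), Pgf at a level under background.

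Endothelial markers were low in the same heart. Of 16 measured endothelial genes 14 were under control array 1 on the sham array (40.9% of all genes). Under all 8 injected hearts lay 10 of the 16 (9.92% of all genes). The list's mean deviation was −0.11 on the sham array against −0.059 to 0.094 on the others. A low value was not particular to that list. The mural list stood at −0.13 on the sham array against −0.12 to 0.14 on the others, with 4 of 7 genes under control array 1. The lymphatic endothelial list stood at 0.040, with 1 of 5 under it. Cdh5, the endothelial cadherin, stood at 10.13 against 9.98 to 10.48, and Pecam1, a junction protein, at 8.48 against 8.44 to 8.67. The part of this in the Kdr value was not tested. The fibroblast list had its highest mean deviation there, 0.22. Of 15 genes that VEGF signalling induces 10 were under control array 1 on the sham array (40.9% of all genes). Under all 8 injected hearts lay 6 (9.92% of all genes), and none of the 15 lay above all of them. Only 5 of the 15 were above background on all 9 arrays. Egr3, Nr4a2, Tfpi2 and Apln, among the 6, were under background on every array. Rcan1 (0.60), Plvap (0.55) and Adamts1 (0.33) stood above control array 1 on the sham array. Dll4, the Notch ligand of sprouting tip cells, stood at 7.53 against 7.83 to 8.02 in the injected hearts. Hey1, a Notch target, stood at 7.25 against 7.47 to 7.88, and Apln, the tip cell peptide apelin, at 5.13 against 5.43 to 6.01 and under background, both picked after their values were seen. Some lung genes were higher on the sham array too, at lower levels than on vesicle array 3 and under background. Sftpc stood 1.84, Sftpb 0.56 and Sftpa1 0.34 above control array 1. Of the 9 lung genes 2 were under control array 1, Scgb1a1 (−0.061) and Scgb3a2 (−0.14). The part of lung transcripts in the sham values was not tested. The fifth ligand, Vegfd, ran the other way, at 7.42 on the sham array against 7.07 to 7.37. It was under background on both control arrays, all cell arrays and vesicle array 1.

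**Figure D3:**
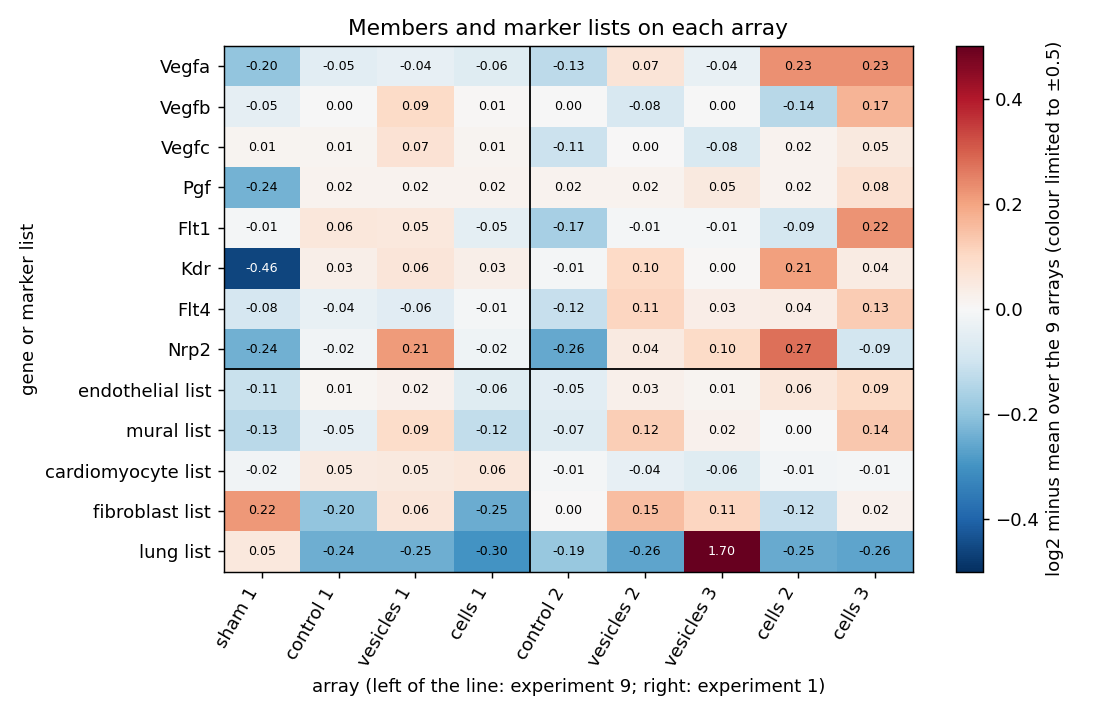
Log2 value minus the mean over the 9 arrays for the 8 members (upper rows) and mean deviation of 5 marker lists (lower rows) on each array; red is higher, blue lower, and colours stop at 0.5 in either direction. The sham column is blue for Kdr (−0.46), Nrp2 and Vegfa and for the endothelial (−0.11) and mural (−0.13) lists, and the lung list is at 1.70 on vesicle array 3.

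The wider pathway was read from 6 lists of 99 genes, 91 of them measured. After vesicles 67 were higher and 24 lower with a median of 0.026, and after cells 60 and 31 with a median of 0.023. Of all genes 39.5% and 44.1% were higher, and of the brighter ones 48.0% and 52.0%. No gene passed limma's adjusted test in either comparison. At limma's unadjusted p under 0.05 there were 4 higher and 1 lower in each. Of all genes 6.44% and 6.73% were under it in both directions together. After vesicles these were 576 higher and 1366 lower of 30142 genes, and after cells 506 and 1523. Receptor partners and brakes had 14 of 15 higher after vesicles and 10 of 15 after cells. Their leading gene was Spry4, a feedback inhibitor of ERK signalling downstream of growth factor receptors. It stood at 7.26 and 7.48 on the control arrays, 7.64, 7.81 and 7.73 on the vesicle arrays, and 7.76, 7.90 and 8.16 on the cell arrays, with 7.48 in the sham heart. Its vesicle arrays all exceeded both controls (3.72% of all genes), and so did its cell arrays (3.2%). Spry4 was named for the lowest unadjusted limma p of its list, which favours such a separation, so the separation is no further evidence. The fitted differences were 0.32 ± 0.085 (SE, limma adjusted p = 0.675) after vesicles and 0.54 ± 0.085 (limma adjusted p = 0.682) after cells.

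Other pathway groups gave the values that follow. Among signal relay genes 19 of 29 were higher after vesicles and 20 of 29 after cells, and Plcg1, the phospholipase docked by Kdr, stood at 0.076 ± 0.025 (SE) after vesicles. Among VEGF-induced targets 10 of 15 were higher after either treatment. Adamts1, a secreted protease, stood at 0.55 ± 0.16 after cells, and Rcan1, a calcineurin inhibitor induced by VEGF, at 0.35 ± 0.13. Dll4 stood at −0.086 ± 0.032 after vesicles. The list of Vegfa inducers also holds genes that restrain them, namely Vhl, Egln1, Egln2, Egln3 and Hif1an. Of its 9 genes 8 were higher after vesicles and 7 after cells, which gives no direction for induction. Epas1, an inducer, stood at −0.13 ± 0.12 after vesicles and −0.049 ± 0.12 after cells. Hif1a, the oxygen-regulated factor, stood at 0.082 ± 0.040 after vesicles, and Ppargc1a, a coactivator that also raises Vegfa, at 0.088 ± 0.038 after cells. Neuropilin partners had 9 of 13 higher after vesicles and 7 of 13 after cells, with Plxnd1, a semaphorin receptor, at 0.17 ± 0.078 and 0.13 ± 0.078. The other ligand and the processing enzymes had 7 and 6 of 10 higher, with Vegfd, under background on both control arrays, at 0.13 ± 0.085 after vesicles. None of these passed limma's adjusted test.

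Between the experiments 33 of 91 pathway genes (36.3%) were higher in experiment 9 and 58 lower, where 41.5% of all genes were higher. At limma's unadjusted p under 0.05 there were 4 higher and 14 lower. Of all genes 12.8% were under it, 1868 higher and 1977 lower of 30142. Rcan1 stood at −0.68 ± 0.10 (SE, limma adjusted p = 0.222) and Plvap, a protein of endothelial openings that VEGF induces, at −0.56 ± 0.087 (limma adjusted p = 0.228). Thbs1, the antiangiogenic thrombospondin, stood at −0.81 ± 0.22 (limma adjusted p = 0.327). Neither these nor any other gene passed limma's adjusted test, against 0% of all genes.

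Markers of other cells moved beside the members as follows. Endothelial genes were higher in 12 of 16 after vesicles (median 0.041) and 14 of 16 after cells (median 0.035), and lymphatic endothelial genes in 4 of 5 after either. Mural genes were higher in 5 and 6 of 7, heart muscle genes in 3 and 3 of 6, and fibroblast genes in 6 and 1 of 6. Macrophage genes were higher in 4 and 2 of 6, mesothelial genes in 4 and 3 of 4, and lung genes in 8 and 0 of 9. None of these genes passed the adjusted test, and their part in the members' values was not tested.

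Patterns across the arrays were described by Pearson's r over the 9 arrays after removal of each experiment's mean, among 4632 genes above background. These values rest on 9 arrays that share controls and a normalization. The genes most like Vegfa were Pstpip2 (r = 0.988), Gm3150 (0.943) and Otud4 (0.934), and those most like Flt1 were Fam120a (0.972), Numb (0.967) and Elovl5 (0.960). Those most like Kdr were Tmem88 (0.956), Atp5pb (0.955) and Aldh6a1 (0.937), and without the sham array these fell to 0.825, 0.882 and 0.493. Among the members, Kdr and Nrp2 had r = 0.72, and 0.78 without the sham array. Kdr and Flt1, the pair of VEGF-A receptors, had r = 0.054, and −0.065 without the sham array. Vegfa had r = 0.59 with Kdr and 0.58 with Flt1.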

How the data were processed

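RNA had been extracted with Trizol from frozen whole hearts and biotin-labelled for Affymetrix whole-transcript arrays, per the labels' protocols. The authors deposited 1 value per probe set and array. Values run from 1.55 to 14.17 with nearly the same distribution on all arrays, so they were read as normalized log2 values and used as deposited. The sources used here give neither their log base nor the summary and normalization behind them; Partek is named in the submitters' processing notes with no role. After such normalization a shift shared by most genes cannot be seen.

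Of 80202 probe sets 30604 had 1 symbol and 2146 several, which were not used. Symbols were updated through Entrez numbers (22818 matched), and the probe set of highest mean stood for its gene, leaving 30142 genes. Of these 61.1% have the same value on 3 or more arrays. Differences were fitted over the 8 injected arrays in limma 3.58.1 (R 4.3.3; lmFit, eBayes), with treatment means and a fixed block for the experiment, 4 residual and 1.18 prior degrees of freedom, two-sided, with Benjamini-Hochberg adjustment over all genes at 0.05. The steps were tested on simulated data. Members and lists were chosen with earlier results of these data known. Named were all members, up to 2 genes per pathway list and comparison by lowest unadjusted p, and the 3 genes most like Vegfa, Flt1 and Kdr; markers and others named beside them were picked as illustrations. Likeness needed 7 or more distinct values. The promoter table of RefSeq on GRCm38.p6 held all 9 members. Alternatives covered the block, scaling, a filter on dim genes, the probe set rule, a trend, sham among controls and each array left out.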

Additional observations from a re-analysis of the deposited data

How the results depend on the processing

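In 16 alternative settings no member passed limma's adjusted threshold in any of the 4 comparisons (15 settings for the experiments, which have no value without the block). Of 504 member values under these settings, 466 kept their direction and 38 turned or fell to 0. Over all genes the count called was 0 in each comparison, and 0 by eBayes with a trend as well. It was 1 for cells against control with the sham array pooled with control, and leaving out single arrays gave 0 to 823 for vesicles and 0 to 901 for cells against control, the higher counts without control array 1; of the pathway genes 0 to 2 were called there, Pik3ca (0.18 after either treatment) and Sphk1 (−0.098 and −0.10). The cause was not tested.

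With the VTS number of the titles as the block, Vegfb stood at −0.033 after vesicles and −0.025 after cells, and Pgf at −0.0042 after vesicles. With quantile normalization Vegfb and Flt1 were 0.044 and 0.0064 for vesicles against cells and Pgf 0.011 for experiment 9 against 1, and with arrays centred on their median Pgf and Kdr were 0.017 and 0.014 in the latter. With the sham array among the controls Kdr stood at 0.17 after vesicles and 0.21 after cells.

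With arrays left out in turn, vesicles against control ran from −0.065 to 0.18 for Vegfa, −0.043 to 0.047 for Vegfb, −0.0042 to 0.018 for Pgf, −0.064 to 0.19 for Flt1, −0.0022 to 0.081 for Kdr and −0.0079 to 0.18 for Flt4. Cells against control ran from −0.066 to 0.089 for Vegfb, 0 to 0.028 for Pgf and −0.045 to 0.21 for Flt1. Vesicles against cells ran from −0.083 to 0.088 for Vegfb, −0.072 to 0.0021 for Vegfc, −0.022 to 0.0094 for Pgf, −0.10 to 0.096 for Flt1, −0.077 to 0.022 for Kdr, −0.056 to 0.014 for Flt4 and −0.036 to 0.20 for Nrp2. Experiment 9 against 1 ran from −0.17 to 0.0030 for Vegfa, −0.0057 to 0.098 for Vegfb, −0.028 to 0.13 for Flt1 and −0.042 to 0.024 for Kdr.

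Vegfa and Nrp2 after cells, Nrp2 after vesicles and Vegfa for vesicles against cells kept their direction under every alternative. A signal not above background limits Vegfc and Pgf.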
